A study of Mus musculus with 27 samples.

Results

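Lowering the acetyltransferase MOF together with its partner MSL1 in female mouse embryonic stem (ES) cells was examined in 2 RNAi experiments, labelled D and E. Each experiment contributed 1 knockdown array and 1 control array, so that 4 of the 27 arrays of the series were compared, paired by letter. The genes described are the 12489 named genes, of 19939 on the array, whose mean level over these 4 arrays was at least 6 on the log2 scale. The knockdown cells were PGK12.1 ES cells co-transfected once with 100 pmol of Mof siRNA and 50 pmol of Msl1 siRNA, and the control cells were PGK12.1 cells given 100 pmol of negative control siRNA, so that the total amount of siRNA differed between the groups and cannot be told apart from the knockdown. Both were harvested after 48 h. PGK12.1 was derived from blastocysts of 129 females crossed to (129 X PGK)F1 males and was used at passages 14 to 18. All cells grew in leukemia inhibitory factor after fibroblast feeders had been depleted on gelatin. PGK12.1 is 1 line, which limits what the 2 experiments can stand for. The p-values measure the spread between RNAi experiments of the whole series, which include the ES lines WD44 and E14, and not of PGK12.1 alone. RNA was hybridised to Affymetrix mouse gene arrays, and levels are the log2 values the authors deposited.

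MOF, encoded by Kat8, acetylates lysine 16 of histone H4, a mark that opens chromatin and favours transcription. It works in separate assemblies. In the MSL complex it is held by the scaffold MSL1 with MSL2 and MSL3, and in the NSL complex by KANSL1 with other subunits. In flies the MSL complex raises transcription of the single male X, and in mammals both complexes act at genes of all chromosomes. A combined knockdown lowers the shared enzyme and the scaffold of 1 of its complexes at the same time. The series also holds arrays of PGK12.1 cells in which MOF alone (experiments 1 to 3), MSL1 alone (A to C) or the target labelled NSL1 (C, D and E) was lowered. Values after NSL1 are those of D and E, and the NSL1 array of C was not used for them. The labels do not say whether NSL1 stands for the NSL complex subunit or for a kinetochore gene of that name.

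The 4 arrays correlated with each other at 0.9941 to 0.9956 over probesets and their medians lay between 6.394 and 6.422. The cells carried the defining transcripts of ES cells on every array. Pou5f1 stood at 12.5 and 12.5 in knockdown cells and 12.5 and 12.5 in control cells, and Nanog at 12.9 and 12.8 in knockdown cells and 12.9 and 12.8 in control cells. Of 18 fibroblast feeder markers on the array 7 were below the level filter. The log2 of their summed level was 13.62 and 13.66 in knockdown cells and 13.59 and 13.55 in control cells, and 0 of the 11 tested feeder markers were called by limma (0 also at an unadjusted p under 0.05). The sum rests mostly on Vim (12.75 and 12.75 in knockdown cells, 12.64 and 12.61 in control cells) and Fn1 (12.11 and 12.22, 12.22 and 12.13). It therefore says little of the other markers, such as Dcn (4.21 and 4.38 in knockdown cells, 4.34 and 4.38 in control cells). Xist, the RNA that coats an inactive X, was below the filter, at 5.63 and 5.47 in knockdown cells and 5.23 and 5.37 in control cells. At the filter itself, Mapk15 was the lowest gene kept (mean 6.00023) and Gab3 the highest left out (mean 5.99993).

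Both targets were lower in both experiments. Kat8 (gene 67773, probeset 10557831, chromosome 7) stood at 8.62 and 8.55 in knockdown cells of experiments D and E, against 9.45 and 9.47 in control cells. This left 56.3% and 52.8% of the control level, a log2 change of -0.87 (SE 0.08, limma adjusted p = 3.13e-05). Msl1 (gene 74026, probeset 10381018, chromosome 11) stood at 8.67 and 8.79 in knockdown cells and 9.16 and 9.21 in control cells. That left 71.2% and 74.8%, a log2 change of -0.45 (SE 0.09, limma adjusted p = 0.00471). Knockdown and control levels did not overlap for either gene. The call for Kat8 held whichever array was left out. That for Msl1 was lost without the knockdown array of D (adjusted p = 0.0629) and without the control array of D (0.0696). In cells given MSL1 siRNA alone, at 100 pmol and in another set of experiments, the change of Msl1 was -0.97, and the co-transfected cells lay 0.52 above that (SE 0.11, limma adjusted p = 0.0271). That difference missed the threshold whichever array was left out (adjusted p = 0.0639 to 0.177). The difference in Kat8 from MOF siRNA alone was 0.35 (SE 0.10, limma adjusted p = 0.125), where MOF alone gave -1.22. The difference in Msl1 from MOF siRNA alone was -0.60 (SE 0.11, limma adjusted p = 0.0204), where MOF alone gave 0.15. This call was lost whichever array was left out, and also against MOF experiment 3 alone.

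**Figure D1:**
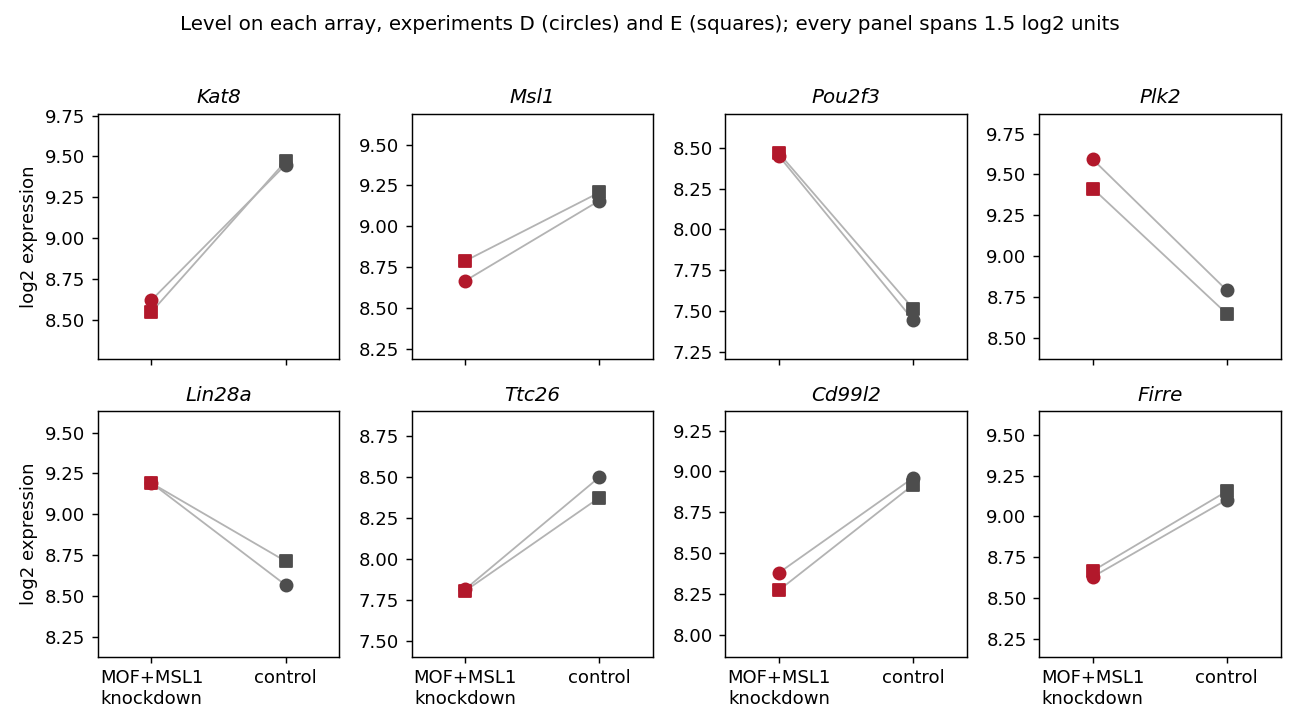
Log2 expression (y axes) of 8 genes on each of the 4 arrays, with MOF and MSL1 knockdown cells at the left and control cells at the right of each panel; grey lines join the arrays of 1 experiment, circles mark D and squares E. All panels span the same range, and in each gene both knockdown arrays lie on the same side of both control arrays, lower for Kat8, Msl1, Ttc26, Cd99l2 and Firre and higher for Pou2f3, Plk2 and Lin28a.

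Many genes shifted by small amounts. A gene was called changed at an adjusted p under 0.05 by limma, with p-values adjusted over all probesets tested. By this rule 1278 genes changed, or 10.2% of those tested, of which 633 were higher (5.07%) and 645 lower (5.16%) in knockdown cells. Among them 26 were higher and 19 lower by at least 1.5-fold, and 0 reached 2-fold in either direction. All 1278 had the same sign in D and E, as had 8411 (67.3%) of all genes tested. The call rests on the mean of these same differences, which favours equal signs, so the agreement is no separate check. Across the 12489 genes, which are not independent replicates, the differences in D and E correlated at 0.573. Their medians were 0.01 in D and -0.0065 in E. In such bulk RNA, fewer cells of a type and less RNA per cell cannot be told apart. Middle levels held more calls than high ones. Split by level into 3 groups of 4163 genes, the low group had 4.18% higher and 6.37% lower, the middle group 7.76% higher and 6.97% lower, and the high group 3.27% higher and 2.16% lower. Of the 230 long noncoding RNA genes tested 12 were higher and 4 lower. Several probesets were tested for 46 of the genes called, and in 5 of these a probeset had the opposite sign. The count depended on every array. It was 307 without the knockdown array of D, 350 without that of E, 393 without the control array of D and 285 without that of E.

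**Figure D2:**
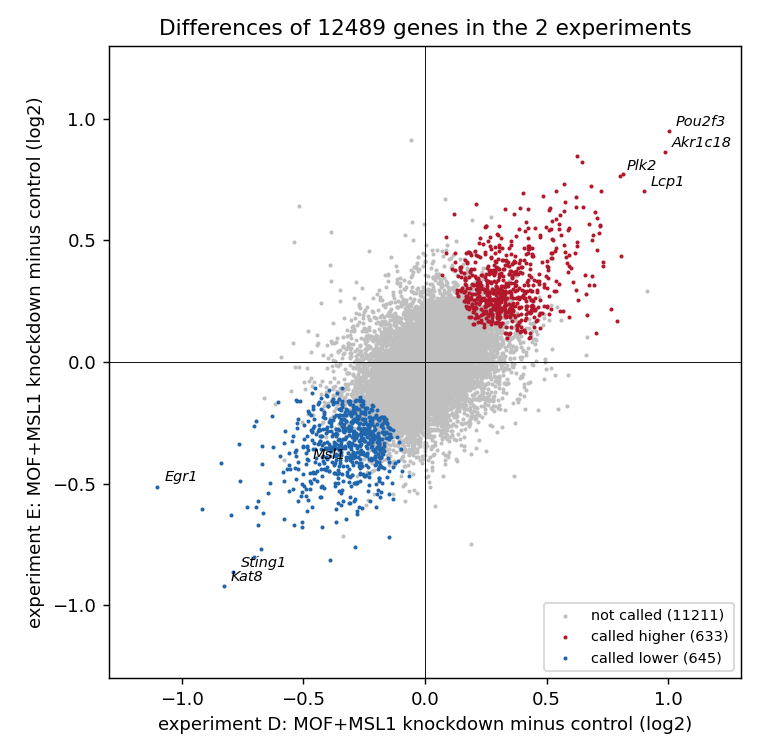
Difference between knockdown and control (log2) in experiment D (x axis) and experiment E (y axis), 1 point per gene, for 12489 genes; red points are the 633 genes called higher, blue the 645 called lower and grey the rest. Every coloured point has the same sign on both axes, which the call on the mean of both differences favours. Pou2f3 and Akr1c18 lie farthest out among genes called higher and Kat8 and Egr1 among genes called lower.

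Pou2f3, a POU-domain transcription factor known for the tuft cells of mouse epithelia, changed most among the genes that rose. Its level was 8.45 and 8.47 in knockdown cells, against 7.45 and 7.52 in control cells (log2 change 0.98, SE 0.06, adjusted p = 8.44e-07). Akr1c18, an enzyme that inactivates progesterone, stood at 8.22 and 7.98 in knockdown cells and 7.23 and 7.12 in control cells (0.92, SE 0.11). Lcp1, the actin-bundling protein L-plastin of blood cells, stood at 7.16 and 7.00 in knockdown cells and 6.26 and 6.30 in control cells (0.80, SE 0.09). Both knockdown arrays lay above both control arrays in all 3 genes. Apart from the targets, most genes named here were picked by size of change or by p, which favours such separation. Dglucy, a mitochondrial D-glutamate cyclase, rose by 0.79, and the polo-like kinase gene Plk2 by 0.78. Myo1a, a brush border myosin, rose by 0.74 and Slc5a11, an inositol transporter, by 0.71. Ttll6, which adds glutamate chains to tubulin, rose by 0.66, Mmrn2, an endothelial matrix protein, by 0.65, and Ephx2, the soluble epoxide hydrolase, by 0.65. Trp53i11, named for its induction by p53, rose by 0.70. The histone gene H2bc4 rose by 0.74, with 10.90 and 10.69 in knockdown cells and 10.27 and 9.84 in control cells. Its call was lost without either knockdown array or the control array of E (adjusted p up to 0.117).

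After Kat8, the genes that fell most included 2 that act in defence and early signalling. Sting1, the adaptor of cytosolic DNA sensing, stood at 6.91 and 6.89 in knockdown cells, against 7.70 and 7.76 in control cells (log2 change -0.83, SE 0.08, adjusted p = 5.19e-05). Egr1, an immediate-early transcription factor, stood at 6.62 and 6.49 in knockdown cells and 7.72 and 7.00 in control cells (-0.81, SE 0.15, adjusted p = 0.00399). The control arrays of Egr1 differed more from each other than the knockdown arrays did. Its change ran from -1.17 to -0.45 with 1 array left out, and its call was lost without either array of D (adjusted p up to 0.0961). Arpin, an inhibitor of the Arp2/3 complex, stood at 7.83 and 7.77 in knockdown cells and 8.53 and 8.58 in control cells (-0.75, SE 0.08). Casp8, the initiator caspase of death receptors, fell by 0.65, and Lgmn, the lysosomal protease legumain, by 0.64. Ucma, a cartilage matrix protein, fell by 0.66, and Clip3, a cytoplasmic linker protein, by 0.71. Tlcd2 fell by 0.76, Gm2027 by 0.72, Vsig2 by 0.68 and Ttc26, a component of intraflagellar transport, by 0.63. Of these 24 genes, 12 in each direction with Kat8 among them, 22 were called whichever array was left out.

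Of 25 tested p53 target genes 10 rose in knockdown cells. p53 is the transcription factor that answers DNA damage and other stress by raising genes of arrest, repair and death. Of the others 0 fell and 15 did not pass, where 5.07% of all genes were higher. At an unadjusted p under 0.05 the counts were 19 higher and 0 lower. The list median was 0.18 (0.20 in D and 0.20 in E), beside 0.002 over all genes tested. Without the knockdown array of D 6 targets were called, and without any of the other 3 arrays 5. Plk2 stood at 9.59 and 9.41 in knockdown cells and 8.79 and 8.65 in control cells. Pidd1, a death-domain protein, stood at 9.15 and 9.27 in knockdown cells and 8.68 and 8.75 in control cells (log2 change 0.50, SE 0.07, adjusted p = 0.00101). Sesn2, a sestrin that restrains mTORC1, stood at 10.71 and 10.76 in knockdown cells and 10.35 and 10.36 in control cells (0.38, SE 0.06). The groups were apart in all 3 genes. Ddit4, another inhibitor of mTORC1, rose by 0.65, the membrane protein gene Perp by 0.43 and the death gene Bbc3 by 0.36. The antiproliferative Btg2 rose by 0.34, and Mdm2, the ligase that destroys p53, by 0.30. The nuclease gene Aen rose by 0.28 and Polk, a DNA polymerase that bypasses lesions, by 0.29. Classical members that did not pass were Ccng1 (0.16, adjusted p = 0.115), Trp53inp1 (0.17, adjusted p = 0.0824) and Pmaip1 (-0.07, adjusted p = 0.617). The list was chosen with results for MOF in this series known, and its median was 0.35 after MOF alone, 0.023 after MSL1 alone and 0.38 after NSL1, the last against the same controls.

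Promoters of 3 p53 targets called higher are shown because they hold the p53 half-site, a palindromic motif of 10 bases searched by its name on both strands. The promoter is the stretch of 250 bases before to 50 after the start, from RefSeq (GRCm38.p6). A promoter was found for 17 of the tested targets, and 6 of these held the half-site (35.3%). Among targets called higher 3 of 9 held it (33.3%), and among all 9955 tested genes with a promoter 6.94%. Counted from the start, the match lay at -186 in Mdm2 (chr10:117710709-117711008, minus strand), at 11 in Aen (chr7:78895677-78895976, plus strand) and at -231 in Polk (chr13:96519138-96519437, minus strand). Capitals mark the half-site, and each sequence runs 5′ to 3′ on the gene's strand.
Mdm2: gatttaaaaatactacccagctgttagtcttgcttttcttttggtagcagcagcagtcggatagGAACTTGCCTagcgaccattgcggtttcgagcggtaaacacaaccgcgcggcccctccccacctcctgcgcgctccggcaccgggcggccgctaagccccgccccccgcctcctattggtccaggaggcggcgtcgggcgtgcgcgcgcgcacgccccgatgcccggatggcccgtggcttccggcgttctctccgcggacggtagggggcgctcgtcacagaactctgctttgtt
Aen: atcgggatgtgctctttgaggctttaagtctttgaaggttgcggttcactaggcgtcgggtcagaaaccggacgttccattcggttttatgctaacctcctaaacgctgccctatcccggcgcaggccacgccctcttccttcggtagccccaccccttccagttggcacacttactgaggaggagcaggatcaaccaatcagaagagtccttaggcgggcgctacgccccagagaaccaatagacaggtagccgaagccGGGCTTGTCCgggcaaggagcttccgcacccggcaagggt
Polk: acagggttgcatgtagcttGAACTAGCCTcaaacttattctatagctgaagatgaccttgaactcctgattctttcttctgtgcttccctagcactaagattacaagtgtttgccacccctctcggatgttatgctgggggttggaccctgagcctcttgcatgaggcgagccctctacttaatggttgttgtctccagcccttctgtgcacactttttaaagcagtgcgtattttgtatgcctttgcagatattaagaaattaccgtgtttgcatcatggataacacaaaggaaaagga
Plk2, Pidd1, Sesn2, Ddit4, Btg2 and Bbc3 held no match in this window. A match is a description of letters and not a measured site.

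Some genes of the primary cilium and its intraflagellar transport fell, 9 of 40 tested. Cilia are built by protein trains that run along the axoneme and by a gate at its base. None of the 40 rose and 31 did not pass, where 5.16% of all genes were lower. At an unadjusted p under 0.05 the counts were 16 lower and 0 higher. The list median was -0.14 (-0.091 in D and -0.17 in E). Ttc26, the IFT-B train component IFT56, stood at 7.82 and 7.81 in knockdown cells and 8.50 and 8.38 in control cells (log2 change -0.63, SE 0.10, adjusted p = 0.00177). Tmem67, a membrane protein of the ciliary gate, stood at 7.36 and 7.23 in knockdown cells and 7.67 and 7.81 in control cells (-0.44, SE 0.07, adjusted p = 0.00271). Dync2li1, a chain of the retrograde motor, stood at 6.30 and 6.21 in knockdown cells and 6.80 and 6.71 in control cells (-0.50, SE 0.11, adjusted p = 0.00856). Knockdown levels lay below control levels in all 3. Tctn2, also of the gate, fell by 0.29, as did the train genes Ift46 by 0.24 and Ift122 by 0.26. BBSome members fell as well, Ttc8 by 0.37, Bbs1 by 0.30 and Bbs9 by 0.26. Of the 40 genes 6 were above 0, the highest being Mks1 at 0.13 (adjusted p = 0.282). The count was 2 without either knockdown array, 5 without the control array of D and 1 without that of E. Ttc26 was called in all 4 of these fits, Tmem67 was lost without either array of E (adjusted p up to 0.0725), and Dync2li1 was lost in each (adjusted p = 0.0769 to 0.0847). The list median was -0.27 after MOF alone, 0.0067 after MSL1 alone and -0.43 after NSL1.

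**Figure D3:**
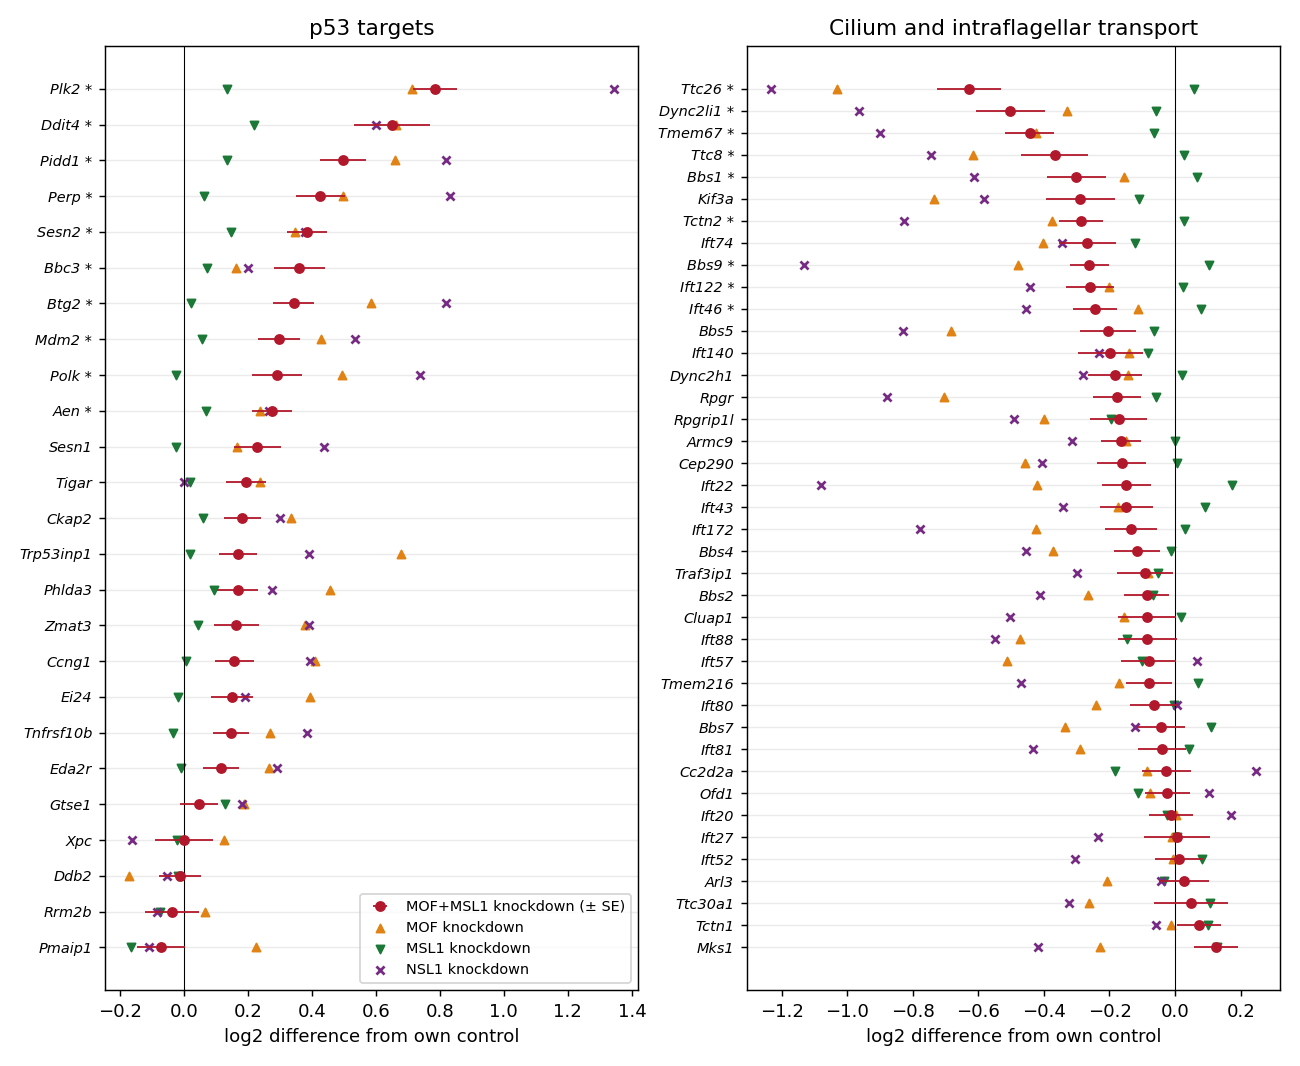
Log2 difference from the controls of the same experiments (x axis) for tested p53 targets (left) and cilium genes (right), ordered by the change after MOF and MSL1 knockdown (red circles, bars ± SE), with the mean change after MOF, MSL1 or NSL1 knockdown beside it. Asterisks mark genes called after MOF and MSL1 knockdown, 10 higher at the left and 9 lower at the right; the MSL1 points lie near 0 in both panels, with list medians of 0.023 and 0.0067.

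Most pluripotency transcripts did not pass the test. Of 29 tested 3 rose and 0 fell, where 5.07% of all genes were higher, or 4 higher and 0 lower at an unadjusted p under 0.05. Lin28a, an RNA-binding protein that blocks let-7 maturation, stood at 9.19 and 9.19 in knockdown cells and 8.57 and 8.71 in control cells (log2 change 0.55, SE 0.08, adjusted p = 0.00145). The knockdown arrays lay above the control arrays, and the call held whichever array was left out. Lifr, the receptor of leukemia inhibitory factor, rose by 0.20 (adjusted p = 0.0422), and Dppa3, a germline and early embryo factor, by 0.32 (adjusted p = 0.0432). A second probeset of Dppa3 gave 0.17 (adjusted p = 0.2), and with any 1 array left out Lin28a alone of the list was called. Pou5f1 stood at -0.02 (SE 0.06), Sox2 at -0.03 (SE 0.06), Nanog at -0.03 (SE 0.06) and Klf4 at -0.01 (SE 0.08). The list median was 0.016.

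Lineage genes moved singly. Otx2, a homeobox factor of the primed epiblast, stood at 9.45 and 9.52 in knockdown cells, against 8.94 and 8.88 in control cells (log2 change 0.57, SE 0.08, adjusted p = 0.00117). Its call held whichever array was left out. Lefty1, a Nodal antagonist, stood at 10.3 and 10.3 in knockdown cells and 10.6 and 10.7 in control cells (-0.33, SE 0.09, adjusted p = 0.0282), a call lost whichever array was left out (adjusted p = 0.121 to 0.221). These were 2 of 13 tested genes of the primed epiblast and the Nodal pathway. Here and for the lists below, the share over all genes tested was 5.07% higher and 5.16% lower. Of 12 trophectoderm genes Tfap2c (0.25) and Gata3 (0.22) rose, and of 12 primitive endoderm genes Hnf4a (0.27) and Gata6 (0.30) rose. Snai1 rose by 0.26 among 8 mesoderm genes, and Neurog1 fell by 0.26 among 6 of neural ectoderm. No member of these 4 lists was called in all 4 fits that left out an array. Their medians were 0.058 for trophectoderm, -0.024 for primitive endoderm, -0.092 for mesoderm and -0.13 for neural ectoderm. Of the 2 tested genes that mark 2-cell-like cells 0 were called, and 0 at an unadjusted p under 0.05.

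Single redox and lipid enzymes changed. Ephx2 stood at 9.69 and 9.61 in knockdown cells and 8.99 and 9.01 in control cells (adjusted p = 0.000248). Gpx2, a glutathione peroxidase, stood at 10.07 and 9.99 in knockdown cells and 9.48 and 9.59 in control cells (log2 change 0.49, SE 0.07, adjusted p = 0.00118). The groups were apart in both. Gss, glutathione synthetase, rose by 0.39, and Ephx1, the microsomal epoxide hydrolase, by 0.31, while Gstm5, a glutathione transferase, fell by 0.59. Thus 4 of 32 tested glutathione and redox genes rose and 1 fell, where 5.07% of all genes were higher and 5.16% lower. Their median of 0.033 took either sign between alternative settings (-0.0061 to 0.047). Without either array of D 2 of them rose, Gss being lost in both fits (adjusted p up to 0.0897), and Gstm5 was lost without the knockdown array of E or either control array (adjusted p up to 0.103). Of 29 aldehyde and fatty acid oxidation enzymes 3 fell, with a median of -0.065. Cpt2, which frees fatty acids from carnitine inside mitochondria, stood at 8.89 and 8.73 in knockdown cells and 9.36 and 9.23 in control cells (-0.48, SE 0.06, adjusted p = 0.000545). The thioesterase Acot2 fell by 0.50, a call lost without either array of D (adjusted p up to 0.0706). The aldehyde dehydrogenase Aldh3b1 fell by 0.39, a call lost without either array of E (adjusted p up to 0.0882). It lay near the filter of 6, at 6.01 and 5.91 in knockdown cells and 6.33 and 6.37 in control cells. Ndufs4, a subunit of respiratory complex I, fell by 0.42 (adjusted p = 0.00251) and Ndufa3 by 0.20, which were the 2 called among 44 genes of oxidative phosphorylation (median -0.039). Ndufs4 was lost without the control array of E (adjusted p = 0.0549) and Ndufa3 whichever array was left out. In the lysosome list of 24, Lipa, the acid lipase, fell by 0.47 and Atg4a, a protease of autophagy on the X, by 0.36, where 5.16% of all genes were lower. The list median was 0.026, with 15 of 24 above 0. A second probeset of Atg4a fell too, by 0.34. Lipa was lost whichever array was left out (adjusted p = 0.0661 to 0.134), and Atg4a was kept only without the knockdown array of D.

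Other pathways held few calls or none. Of 22 genes that answer ATF4 or unfolded proteins 3 rose, namely Sesn2 and the stress transcription factors Ddit3 (0.26) and Atf3 (0.37). The share higher over all genes was 5.07%, and the list median was -0.0048, with 9 of 22 above 0. Orc1 of the replication origin rose by 0.21, the only call among 29 replication genes, and the survivin gene Birc5 by 0.27, the only call among 24 mitosis genes. Among 19 cholesterol synthesis genes Nsdhl fell by 0.28. Prkra, a partner of Dicer, stood at 5.83 and 5.69 in knockdown cells and 6.31 and 6.21 in control cells, a fall of 0.50 and the only call among 9 genes that process small RNAs. Both knockdown levels of Prkra lay below the filter of 6, which the gene passed only through the control arrays. Orc1, Birc5, Nsdhl and Atf3 were lost whichever array was left out, and Ddit3 and Prkra in 3 of 4 such fits, in each case without the knockdown array of E or either control array. By limma 0 were called among 20 genes of glycolysis, 39 of the mitochondrial ribosome, 34 tRNA synthetases, 22 small nucleolar RNAs and 7 of the interferon response, whose medians lay between -0.016 (glycolysis) and 0.064 (interferon response). At an unadjusted p under 0.05 glycolysis had 0 higher and 1 lower, the mitochondrial ribosome 3 and 2, tRNA synthetases 1 and 3, small nucleolar RNAs 3 and 0, and the interferon response 2 and 0. Among 17 histone genes H2bc4 alone was called.

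The other subunits of the complexes were not called. In the MSL complex Msl2, a ubiquitin ligase subunit, stood at 0.08 (adjusted p = 0.514), and Msl3, a chromodomain subunit on the X, at -0.10 (adjusted p = 0.395). Of 9 tested genes of the NSL complex 0 were called by limma, and 2 were higher and 0 lower at an unadjusted p under 0.05. Their median was 0.039, with 7 above 0. Kansl1 stood at 0.14 (SE 0.06, adjusted p = 0.172), and its second probeset at 0.45 (SE 0.16, adjusted p = 0.0948). Among 19 other acetyltransferases of the MYST family, their partners and deacetylases of the same lysine, Brpf3, a scaffold of related complexes, rose by 0.25 (adjusted p = 0.0133), a call lost without either array of E (adjusted p up to 0.229). Sirt2, a deacetylase of this lysine, stood at -0.20 (adjusted p = 0.0541).

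X-linked genes were lower more often than autosomal genes. Of 402 tested X-linked genes 47 fell (11.7%) and 12 rose (2.99%), while of 12051 autosomal genes 597 fell (4.95%) and 618 rose (5.13%). The share lower ran from 2.81% on chromosome 10 to 7.11% on chromosome 9 among autosomes, and the share higher from 2.98% on chromosome 6 to 7.93% on chromosome 10. The median change was -0.0434 on the X and 0.0032 on autosomes, where single autosomes ran from -0.0115 to 0.0262. The median of X minus autosomes was -0.0466, and it was -0.0555 in D and -0.0322 in E. Below 0 lay 61.2% of X-linked genes and 49% of autosomal ones. No test was made of the shift, which is a description of these arrays. Without the knockdown array of D 21 X-linked genes fell, among 182 genes lower in all, and without that of E 10 of 155. Without the control array of D the count was 13 of 190 and without that of E 11 of 139. The X median was -0.0467 after MOF alone, -0.0333 after MSL1 alone and 0.0103 after NSL1. The lowest autosome median was -0.04 after MOF alone (chromosome 12), -0.0367 after MSL1 alone (chromosome 13) and -0.0523 after NSL1 (chromosome 7). After MSL1 alone the X was thus not the lowest chromosome.

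**Figure D4:**
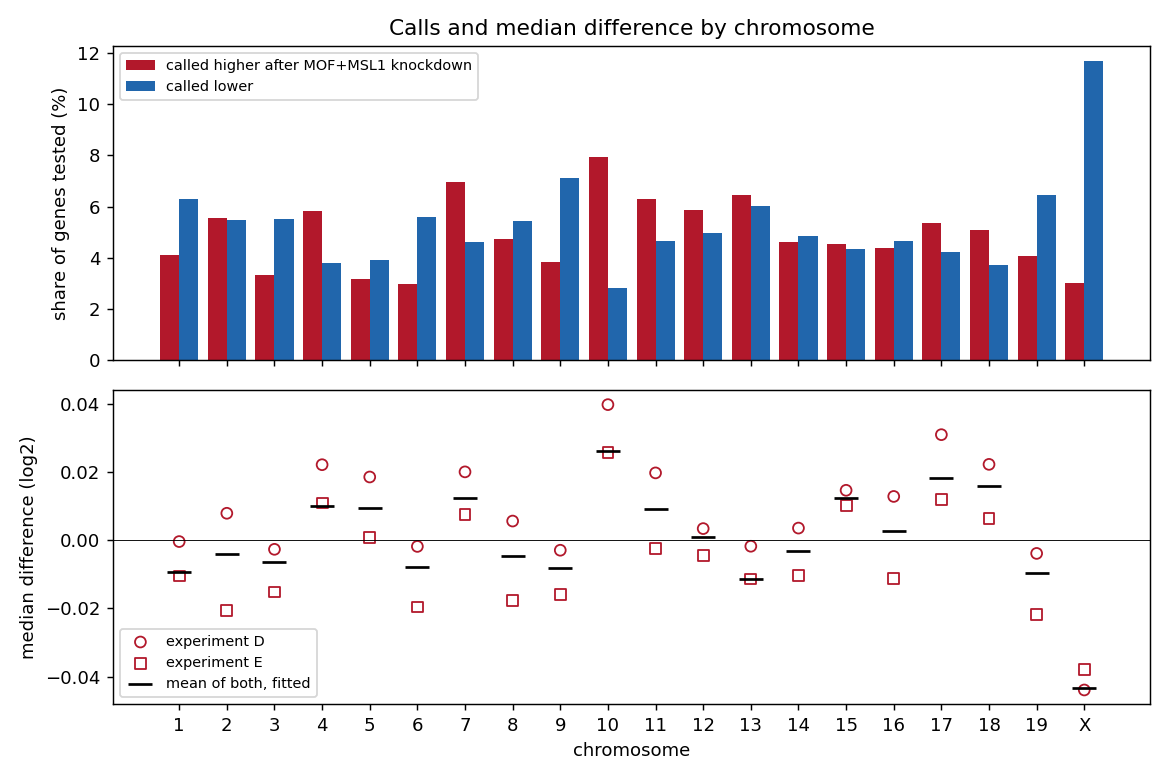
Share of tested genes called higher (red) and lower (blue) after MOF and MSL1 knockdown for each autosome and the X (upper panel, percent; the Y, with 1 gene tested, is not drawn), and the median log2 difference in experiment D (circles), in experiment E (squares) and in the fit over both (bars, lower panel). Of the chromosomes drawn, the X has the tallest bar of lower calls, 11.7%, and the lowest median, -0.0434, and its circle and square lie below those of every autosome.

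Among X-linked genes that fell, Cd99l2, a membrane protein related to CD99, stood at 8.38 and 8.27 in knockdown cells and 8.96 and 8.92 in control cells (log2 change -0.61, SE 0.06, adjusted p = 8.33e-05). Zfp280c, a zinc finger gene, stood at 10.29 and 10.02 in knockdown cells and 10.77 and 10.63 in control cells (-0.55, SE 0.07, adjusted p = 0.000307). Firre, a long noncoding RNA that anchors X-linked loci in the nucleus, stood at 8.63 and 8.67 in knockdown cells and 9.10 and 9.15 in control cells (-0.48, SE 0.07, adjusted p = 0.00152). These 3 were apart on every array and called whichever array was left out, as were Zc4h2 (-0.51) and Zfp185 (-0.46). Arxes1 fell by 0.55, a call lost without either array of E (adjusted p up to 0.106). 1700013H16Rik fell by 0.50, a call lost whichever array was left out (adjusted p = 0.114 to 0.197). Firre was at -0.38 after MOF alone and -0.46 after MSL1 alone, and Zfp185 at -0.62 after MOF alone and -0.36 after MSL1 alone. Higher on the X were Nap1l2, a nucleosome assembly gene (0.53), Pof1b (0.46), Ripply1, a transcriptional corepressor of somites (0.43), BC065397 (0.43) and Pcdh19, a protocadherin (0.33). Nap1l2 stood at 6.41 and 6.32 in knockdown cells and 5.98 and 5.69 in control cells. Pof1b stood at 6.53 and 6.04 in knockdown cells and 5.92 and 5.74 in control cells. The control levels of both genes lay below the filter of 6, which they passed only through the knockdown arrays. None of the 5 genes higher on the X was called in every fit that left out an array. Ripply1 and BC065397 were lost without either array of E, Nap1l2 and Pcdh19 without any but the control array of D, and Pof1b without any but the knockdown array of E. Of 10 genes known to escape X inactivation Shroom4 alone was called (-0.37), and it too was lost without either array of E (adjusted p up to 0.193).

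How far the combined knockdown differs from lowering MOF alone was tested against the 3 MOF experiments, which have their own controls. MOF alone changed 3575 genes (28.6%). Of the genes called after the combined knockdown, 834 were called with the same sign after MOF alone. They made up 65.3% of the calls of the combined knockdown and 23.3% of those of MOF alone. The same sign was seen in 91.6% of the genes called and in 69% of all genes tested, and the changes correlated at 0.606 over 12489 genes. Genes called higher had a median of 0.306 in the combined knockdown and 0.193 after MOF alone, and genes called lower -0.314 and -0.277. These genes were picked by their call in the combined knockdown, which favours larger medians there, so the medians do not compare the strength of both knockdowns. The test of the difference called 69 genes (0.552%), 41 higher and 28 lower in the combined knockdown, and 34 of these were among its own calls. The number of experiments, the set in which the arrays appear to have been normalized and, in experiments 1 and 2, a second round of 400 pmol siRNA for 24 h differ between both sides and cannot be told apart from the added Msl1 siRNA. Against experiment 3 alone, with 1 round, 86 genes differed. The count fell to 2 without the knockdown array of D and to 1 without the control array of D, and was 35 without the knockdown array of E and 27 without the control array of E.

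Pou2f3 was, of the genes named here, the one called against MOF alone in each fit with 1 array left out. It changed by 0.98 in the combined knockdown and by 0.18 after MOF alone, a difference of 0.80 (SE 0.08, limma adjusted p = 0.000468, and 0.0036 to 0.0175 with 1 array left out). Against MOF experiment 3 alone the difference was 0.85 (adjusted p = 0.00359). It also stood apart from MSL1 alone, where it changed by 0.06 (difference 0.91, SE 0.08, adjusted p = 7.49e-05), and from NSL1, where it changed by 0.25 (difference 0.73, adjusted p = 9.17e-07). Lcp1 was 0.97 above MOF alone (SE 0.12, adjusted p = 0.00621), where it stood at -0.17, and 0.91 above MSL1 alone (adjusted p = 0.00194). Ucma was 0.65 below MOF alone (SE 0.09, adjusted p = 0.00621), where it stood at -0.01, and 0.71 below MSL1 alone (adjusted p = 0.0013). Vsig2 was 0.61 below MOF alone (adjusted p = 0.00971) and 0.81 below MSL1 alone (adjusted p = 0.000779). These 4 genes were called in the same direction against both MOF alone and MSL1 alone. Against NSL1 Vsig2 was not called (difference 0.07, adjusted p = 0.528), after which it stood at -0.75. Against MOF alone the call of Lcp1 and Ucma was kept by 2 of 4 fits with 1 array left out and that of Vsig2 by 1, with adjusted p-values up to 0.0704 and 0.0876. Lin28a, which stood at -0.17 after MOF alone, was 0.72 above it (adjusted p = 0.00827) but 0.07 above MSL1 alone (adjusted p = 0.796), where it changed by 0.48. The difference of Lin28a from MOF alone was also kept by 2 of 4 such fits, and without the experiment as a block its adjusted p was 0.161.

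Other genes differed from MOF alone in other ways. Ccn1, a matricellular protein, stood at -0.11 in the combined knockdown and 0.45 after MOF alone (difference -0.56, adjusted p = 0.00675). Trp53inp1 stood at 0.17 in the combined knockdown and 0.68 after MOF alone (difference -0.51, adjusted p = 0.00812). Snord104, a small nucleolar RNA, stood at -0.00 in the combined knockdown and 0.49 after MOF alone (difference -0.50, adjusted p = 0.00971). Serinc5, a membrane protein that restricts retroviruses, fell by 0.31 in the combined knockdown and stood at 0.42 after MOF alone (difference -0.73, adjusted p = 0.00813). Each of these calls was kept by 2 of 4 fits with 1 array left out (highest adjusted p 0.0704 for Ccn1, 0.0763 for Trp53inp1, 0.107 for Snord104 and 0.0704 for Serinc5). Traf3ip2, an adaptor of interleukin-17 receptors, rose by 0.49 in the combined knockdown and stood at -0.07 after MOF alone (difference 0.56, adjusted p = 0.00812), and it stood at 0.63 after NSL1. Gm7982 was also called (difference 0.73, adjusted p = 0.00805). It stood at -0.09 in the combined knockdown and -0.81 after MOF alone, and 17 probesets carry its name, some with identical values. Traf3ip2 and Gm7982 too were kept by 2 of 4 fits with 1 array left out (highest adjusted p 0.0704 and 0.0794). Against MOF experiment 3 alone the calls of Lin28a (adjusted p = 0.0601), Trp53inp1 (0.0541) and Traf3ip2 (0.0615) were lost, and those of the other 7 genes named beside Pou2f3 were kept (adjusted p up to 0.0477). Without the experiment as a block the adjusted p was 0.059 for Gm7982 and 0.0545 for Snord104.

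**Figure D5:**
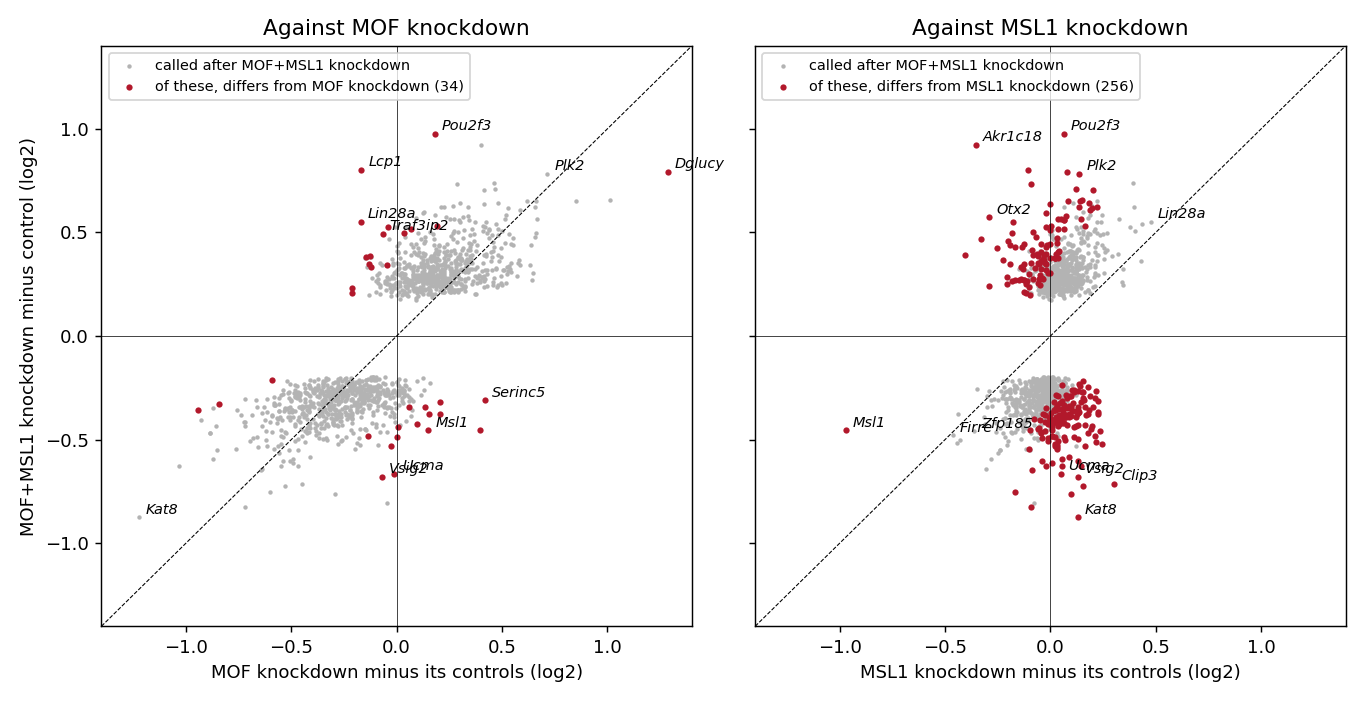
Log2 change after MOF and MSL1 knockdown (y axis) against the change after MOF knockdown (left, x axis) or MSL1 knockdown (right, x axis) for the 1278 genes called after MOF and MSL1 knockdown; red points differ from the single knockdown by limma, 34 genes at the left and 256 at the right, and the dashed line marks equal change. Points at the left follow the dashed line loosely, with Pou2f3 and Lcp1 above and Ucma and Vsig2 below, while those at the right gather near 0 on the x axis.

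MSL1 alone, given as 100 pmol of siRNA against 50 pmol of Msl1 siRNA in the combined knockdown, changed 82 genes (0.657%). The dose, the experiments and the added Mof siRNA cannot be told apart in this comparison. Of the genes called after the combined knockdown 24 were called with the same sign after MSL1 alone, 1.88% of the calls of the combined knockdown and 29.3% of those of MSL1 alone. The same sign was seen in 66.7% of the genes called and in 56.1% of all genes, with a correlation of 0.199 over 12489 genes. The test of the difference called 303 genes (2.43%), 128 higher and 175 lower in the combined knockdown, of which 256 were among its own calls. Akr1c18 rose by 0.92 in the combined knockdown and stood at -0.35 after MSL1 alone (difference 1.28, SE 0.14, limma adjusted p = 0.000431). Otx2 rose by 0.57 in the combined knockdown and stood at -0.29 after MSL1 alone (difference 0.86, SE 0.11, adjusted p = 0.0013). Dglucy (difference 0.71) and Mc5r, a melanocortin receptor (difference 0.80), were also above MSL1 alone. Below it were Clip3 (difference -1.02), Kat8 itself (-0.87 in the combined knockdown and 0.13 after MSL1 alone, adjusted p = 0.000198) and Plekhb1 (difference -0.77). Dglucy was also called against MOF alone, but below it (difference -0.49, SE 0.08, limma adjusted p = 0.0163). It rose by 1.29 after MOF alone, and that call was lost whichever array was left out. The 7 calls against MSL1 alone were kept by each fit that left out an array. The total was 75 without the knockdown array of D, 53 without that of E, 148 without the control array of D and 38 without that of E.

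The arrays labelled NSL1 came from the same experiments and were set against the same controls, which cancel in the difference. That difference called 4374 genes (35%), 2549 higher and 1825 lower in the combined knockdown, of which 671 were among its own calls. The count was 2257 without the knockdown array of D and 2840 without that of E. Zc4h2, an X-linked zinc finger gene, fell by 0.51 in the combined knockdown and stood at -1.52 after NSL1 (difference 1.01, adjusted p = 1.88e-07). Slc44a4, a choline-like transporter, fell by 0.37 in the combined knockdown and stood at -1.33 after NSL1 (difference 0.96). Pcbd1 fell by 0.37 in the combined knockdown and stood at -1.51 after NSL1, and the peroxisomal Pxmp4 fell by 0.29 in the combined knockdown and stood at -1.31 after NSL1. Fstl1, a secreted follistatin-like protein, went the other way. It stood at 9.16 and 9.08 in knockdown cells and 9.65 and 9.63 in control cells (log2 change -0.52, SE 0.06, adjusted p = 0.00014), and at 0.68 after NSL1 (difference -1.20). Irgm1, an immunity-related GTPase, fell by 0.52 in the combined knockdown and stood at 1.12 after NSL1. Slc27a2, a fatty acid transporter, and Naaa, a lysosomal amidase, fell by 0.35 and 0.37 in the combined knockdown and stood at 0.73 and 0.94 after NSL1. The calls of Irgm1, Naaa and Pxmp4 against control were lost whichever array was left out, Pcbd1 was kept only without the control array of E and Slc27a2 only without the knockdown array of D. Dtna stood at -0.08 in the combined knockdown and 1.26 after NSL1. Lcp1 rose by 0.80 in the combined knockdown and stood at 1.5 after NSL1 (difference -0.70, adjusted p = 6.88e-05), and Ucma fell by 0.66 in the combined knockdown and stood at 0.14 after NSL1 (difference -0.81).

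Promoters of the genes called were described beside those of all genes tested. A RefSeq promoter was found for 503 of the 633 genes higher, 534 of the 645 lower and 9955 of the 12489 tested. Where a gene had several entries the first was taken, which concerned 1960 genes. The median GC share was 62% in genes called higher, 60% in genes called lower and 61% in all. Observed over expected CpG was 0.746 in genes called higher, 0.686 in genes called lower and 0.762 in all. The motif CCAAT, on either strand, was held by 35.2% of genes called higher, 42.1% of genes called lower and 38.6% of all, and GGGCGG by 67.2%, 60.9% and 64.9%. CACGTG was held by 10.9%, 8.05% and 10.4% in the same order, and TATAAA by 7.75%, 5.99% and 6.86%. For CCGGAAG the shares were 14.9%, 15% and 17.6%, for CATGCGC 6.76%, 4.87% and 7.15%, for AAGATGG 5.96%, 7.12% and 7.37%, and for TGACGTCA 2.58%, 3.93% and 3.23%. The p53 half-site was held by 7.95% of genes called higher, 7.49% of genes called lower and 6.94% of all. X-linked genes called lower had an observed over expected CpG of 0.571, beside 0.648 in all X-linked genes tested. These shares were not tested.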

How the data were processed

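The authors deposited log2 expression for 35556 probesets on 27 arrays. Affymetrix Expression Console and RMA are named as the tools, per the submitters' processing notes; versions and genome build are not given in the sources used here. From steps in their medians, the PGK12.1 arrays appear to have been normalized in separate sets, of which experiments D and E are 1; knockdowns of different sets were compared only through each experiment's own control. Probesets were named by the platform annotation, updated through RefSeq of GRCm38.p6. Of the probesets 21789 had 1 gene symbol, 1621 several and 12146 none, and the last 2 kinds were left out. Tests used the 13689 probesets with 1 symbol and a mean of at least 6 over the 4 arrays, and a gene is represented by its brightest probeset.

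limma 3.58.1 (R 4.3.3) was fitted to all 27 arrays with the experiment as a block (12 experiments) and a term per knockdown, with 1 of its own for the NSL1 array of experiment C (8 residual and 6.93 prior degrees of freedom). The log2 fold change equals the mean of the 2 paired differences. The other experiments lend only the spread, since 2 pairs alone leave 1 residual degree of freedom. p-values were adjusted by Benjamini-Hochberg over the probesets. The labels give each experiment its own number and control, which is where the pairing comes from. Deviations of same-letter knockdown and control arrays from their group means correlated at 0.247. Precision is limited by the number of arrays. The fit was tested on data simulated from the same model with independent errors. Such data cannot show whether the spread lent by the other experiments holds for D and E. The genes, lists and tests were chosen with earlier results of these data known. Genes named are the targets, the 12 largest changes each way with the same sign in D and E, up to 5 on the X each way, up to 4 members per list by p, and the 5 with the smallest adjusted p each way in each difference between knockdowns; further list members called were named for completeness, as were Zfp185, Nanog and other marker genes. Alternatives were no block, other sets of arrays, median centring, cyclic loess, other filters, array weights, an intensity trend, shared probesets and leaving out each array.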

Additional observations from a re-analysis of the deposited data

How the results depend on the processing

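Of 83 named genes called, which leave out some further list members, 0 turned direction in the 16 alternatives, although 68 of them had a value at a filter of 7. Of the 83 genes 71 were called without the replicate block (27 arrays), 73 in the 4 arrays alone with the block and 40 without it, 78 after median centring, 79 after cyclic loess and 44 to 52 with 1 array left out. Of the 1278 calls 862 were kept without the block (933 calls in all) and 944 in the 4 arrays alone with the block. In the 4 arrays alone with no replicate block 135 genes changed (73 higher, 62 lower), and with no filter on low values, which tested 19939 genes, 719 (351 higher, 368 lower). With 1 array left out 285 to 393 changed, 125 to 203 higher and 139 to 190 lower. The difference from MOF called 32 genes with no replicate block, 38 with 1 term per knockdown across sets, 21 with no filter and 1 to 35 with 1 array left out. That from MSL1 called 157, 117 and 80 in the same order, 468 with array weights and 38 to 148 with 1 array left out. That from NSL1 called 2257 to 4304 with 1 array left out. Where no cause follows from fewer arrays or more genes tested, the cause was not tested. The X-linked minus autosomal median was -0.0264 with no filter. Msl1 lay between -0.496 and -0.413 with 1 array left out. The p53 list median lay between 0.17 and 0.21 and the cilium median between -0.16 and -0.094 over the alternatives. With 2 experiments, leaving out 1 array removes the replicate check of its group. The array that remains there is assumed to vary like the other groups. In these fits the NSL1 arrays of D and E also enter the fold change. Kat8 was at -0.901 without the knockdown array of D, where the pair of E gave -0.921.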
